A study of Drosophila melanogaster with 62 samples.

Results

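The genes pumilio (pum), brain tumor (brat), nanos (nos) and meiotic P26 (mei-P26) encode translational repressors of Drosophila melanogaster. They were taken by gene name from the authors' comparison tables and by the same FlyBase gene identifier from the segment annotations and the expression table. They are 4 genes of the 12625 in the authors' early segment annotation. Of the 4, pum, brat and mei-P26 are among the 415 genes found in any comparison table, and nos is in none. The series measured RNA in embryos mutant for neuronal RNA-binding proteins of the ELAV family, and asked which 3′ UTR stretches those embryos use less. RNA came from pooled male embryos, collected in an early window (14 to 16 h) or a late window (18 to 22 h). In the first experiment the early mutants were the single mutants elav, rbp9 and fne, the double mutants elav-fne and elav-rbp9, and the triple mutant elav-fne-rbp9, with 3 libraries each, set against 3 wild-type libraries. The late mutants were elav with 3 libraries, fne with 4 and elav-fne with 5, set against 4 wild-type libraries. For the 3 fne-rbp9 libraries, the labelled age is that of the late window while the comparison named beside it is an early one, so their stage is unclear. In the second experiment, mutants written nFne and elav-nFne in the labels were each set against wild type, with 3 libraries per group at each stage. The labels do not describe the nFne allele further, nor the alleles of the other mutants. RNA of wild-type adult heads was measured in 2 libraries.

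Pum is a sequence-specific RNA-binding protein that binds 3′ UTRs and represses translation, in part by recruiting the CCR4-NOT deadenylase, which shortens poly(A) tails. Nos and Brat can act with Pum on the same messenger RNA, the classical case being hunchback in the early embryo. Brat and Mei-P26 belong to the TRIM-NHL family and are known as growth repressors in neural stem cells and in the germline. In neurons, pum and nos are known for roles in dendrite growth and at synapses. ELAV, FNE and RBP9 are paralogous proteins, and ELAV is known for lengthening neuronal 3′ UTRs by suppressing cleavage and polyadenylation at sites near the stop codon.

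Long alternative 3′ UTRs mark 3 of the 4 genes in the reference annotation (BDGP6.54, the same assembly as the authors' dm6 coordinates). The mei-P26 gene (FBgn0026206, chr X:9163255-9189309, plus strand) has the longest annotated 3′ UTR of all 13546 coding genes that have one, at 18494 bases in transcripts RB and RC. Its shorter forms have 3′ UTRs of 4375 bases in RD, 844 bases in RA and RE, and 481 bases in RF. The brat gene (FBgn0010300, chr 2L:19133816-19179758, plus strand) ranks 22nd, with 8499 bases in transcript RC, 2235 in RE, 1308 in RB and RF, and 593 in RA. The pum gene (FBgn0003165, chr 3R:9066343-9237682, minus strand) ranks 122nd, with 4602 bases in RG and RH, 3367 in RB and 1188 in the other 5 transcripts. The nos gene (FBgn0002962, chr 3R:19157238-19160202, plus strand) has a single 3′ UTR length of 880 bases in both of its transcripts and ranks 2343rd. The median coding gene has a longest 3′ UTR of 227 bases, and the 90th percentile is 1411 bases. The ratio of longest to shortest 3′ UTR was 38.4 for mei-P26, 14.3 for brat and 3.87 for pum.

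The authors divided each gene into segments, stretches of exon between annotated or measured boundaries, with 1 annotation for each stage. A comparison table then gives the use of a segment relative to the rest of its gene. The segments listed for pum, brat and mei-P26 all lay wholly in annotated 3′ UTR, with 0 coding bases and no overlap with another gene on either strand. For pum the listed segment was the last of the gene, number 22 (chr 3R:9066343-9067577). It spans 1235 bases, from base 3368 to base 4602 of the 3′ UTR, is the same in both annotations, and belongs only to transcripts RG and RH. It makes up 26.8% of the longest pum 3′ UTR. For mei-P26 the listed segment was also the last. In the early annotation it is number 17 (chr X:9178299-9189309), 11011 bases from base 7484 to base 18494, or 59.5% of the longest 3′ UTR. In the late annotation it is number 15 (chr X:9175191-9189309), 14119 bases from base 4376 onward, or 76.3% of that 3′ UTR. Both belong only to RB and RC.

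The brat segment differed in kind, because it was not the last of its gene. The early segment 10 (chr 2L:19172568-19177443) covers 4876 bases, from base 1309 to base 6184 of the RC 3′ UTR. The late segment 12 (chr 2L:19173543-19177443) covers 3901 bases, from base 2284 to the same end. These make up 57.4% and 45.9% of the longest brat 3′ UTR. A last segment of 2315 bases follows them and was not listed in any table. The listed brat segments lie in an exon of RC alone, in an intron of RE, and past the end of the other 3 transcripts. The last segment holds 77 coding bases of a transcript other than RC. The authors' type code is TE for the pum and mei-P26 segments and LE for the brat segments. No source used here defines these codes.

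**Figure D1:**
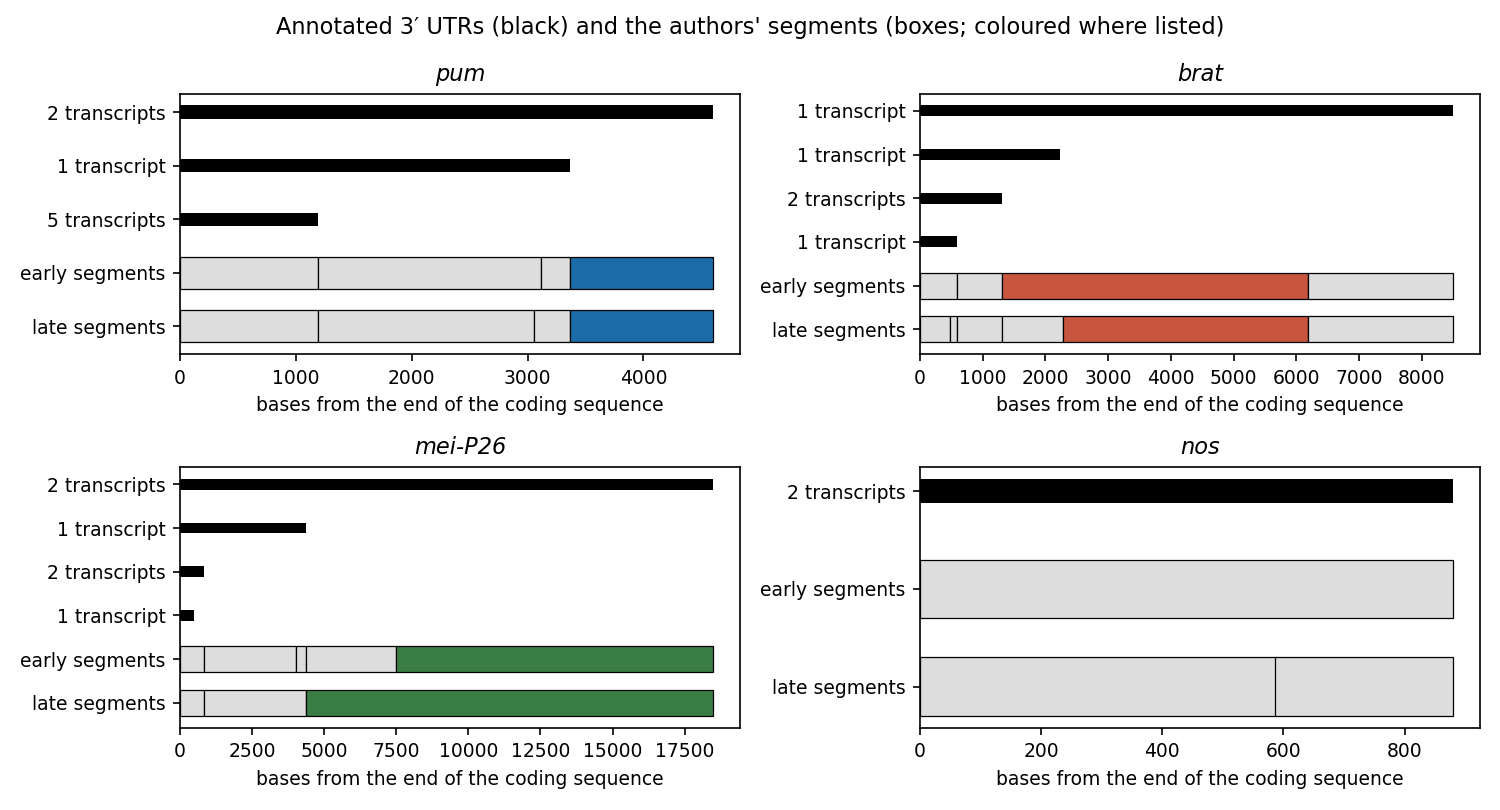
Annotated 3′ UTR lengths of each gene (black bars, with the number of transcripts of that length, each measured from its own stop codon) above the authors' early and late segments (boxes), by distance in bases from the stop codon of the longest form. Coloured boxes are the listed segments: the last one in pum and mei-P26, and in brat one that is followed by a further 2315 bases.

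The nos gene offered the least to measure. Its 3′ UTR was a single segment in the early annotation and was split in 2 at base 587 in the late annotation. Every gene in the 10 tables of the first experiment had at least 2 segments marked as 3′ UTR, so nos had no such pair in any early comparison. In the late annotation nos had the pair and was listed in none of the 3 late tables. The other 3 genes had 4 (pum), 4 (brat) and 5 (mei-P26) such segments early, and 4 (pum), 6 (brat) and 3 (mei-P26) late.

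The first experiment gave decreased use of a 3′ UTR segment of pum, brat and mei-P26 in embryos lacking elav. This was the last segment in pum and mei-P26, and in brat one followed by a last segment that was not listed. Of 40 entries, 4 genes in 10 tables, 15 were filled: 6 for brat, 5 for pum and 4 for mei-P26. They fell in 6 tables, all of mutants that lack elav. The 40 include nos in the comparisons on the early annotation, where it had no pair of 3′ UTR segments. The 4 tables of mutants with elav intact listed none of the genes. Each table holds only decreases. Entries have a log2 fold, mutant over wild type, of -0.75 or lower and an adjusted p that is always below 0.0001. A gene that is not listed may therefore have changed less, changed upward or not been measurable. The values are the authors' own, without values per library, so no test was made here. Nothing in the labels says that replicates came from separate collections, and the authors' p-values may then measure technical spread. Tables of 1 stage share their wild-type libraries. In RNA of whole embryos, fewer cells that use a segment and less use of it within cells cannot be told apart.

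In early elav embryos, pum showed a large decrease. The authors' deposited table gives a log2 fold of -4.02 for pum segment 22 (adjusted p = 1.6e-29), a 16.2-fold lower use in elav than in wild type. That fold was the 5th lowest of 185. The authors' deposited table gives -1.89 for mei-P26 (adjusted p = 3.7e-171), a 3.71-fold lower use, whose adjusted p ranked 8th. For brat, the authors' deposited table gives -0.99 (adjusted p = 1.1e-42), a 1.98-fold lower use. The median of the list was -1.41 in the authors' deposited table, so mei-P26 lay below it and brat, at rank 149, above it. This list holds 1.47% of the 12624 genes with at least 2 segments, against 3 of the 4 repressor genes. It holds 3.67% of the 5046 early genes whose 3′ UTR is marked as 2 or more segments. The 4 genes were chosen with earlier results of these data known, so their count is not independent of that choice.

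In early embryos that lacked rbp9 as well as elav, the same 3 genes were listed. In early elav-rbp9 embryos, the authors' deposited table gives -3.63 for pum (adjusted p = 1.5e-14), -1.72 for mei-P26 (adjusted p = 1.3e-59) and -1.04 for brat (adjusted p = 3.8e-27). Compared with elav, the elav-rbp9 folds differed by 0.39 for pum, 0.17 for mei-P26 and -0.05 for brat, from the authors' deposited tables. These differences were not tested, as the tables hold no values per library and share wild type. The elav-rbp9 list holds 1.18% of genes and again 3 of the 4 repressor genes.

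In early elav-fne embryos, the mei-P26 fold lay further below 0 than in elav embryos. The authors' deposited table gives -3.49 for mei-P26 (adjusted p = 3.8e-30), an 11.2-fold lower use in elav-fne than in wild type, against the -1.89 of elav. The elav-fne minus elav difference at the identical segment was -1.60 log2, from the authors' deposited tables. The same difference was -0.52 for pum and -0.17 for brat in the authors' deposited tables. For pum, the authors' deposited table gives -4.54 in elav-fne (adjusted p = 2.6e-15), a 23.3-fold lower use. For brat, the authors' deposited table gives -1.16 (adjusted p = 3.8e-18), a 2.23-fold lower use. None of these differences between mutants was tested. The list holds 1.86% of genes, and its median, over a partly different set of genes, was -1.73 in the authors' deposited table. Some genes in both lists fell further between them than mei-P26 did, and others less. In the authors' deposited tables hth went from -3.42 in elav to -7.55 in elav-fne, and sgg from -1.38 to -4.12. In the same order, Ace went from -0.83 to -1.06. A difference as large as that of mei-P26 was thus not particular to it.

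In the triple mutant elav-fne-rbp9, 2 of the 4 genes were listed, where the list holds 2.25% of genes. The authors' deposited table gives -3.60 for pum (adjusted p = 5.9e-12) and -1.24 for brat (adjusted p = 1.1e-35). The gene mei-P26 was not listed in the triple mutant, and its value there is not known. Triple mutant minus elav-fne, the difference was 0.94 log2 for pum and -0.08 log2 for brat, from the authors' deposited tables and not tested.

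In late embryos each gene was listed at least once, except nos, but mei-P26 and pum in different mutants. In late elav embryos the authors' deposited table gives -3.73 for pum (adjusted p = 1.7e-14), the 2nd lowest fold of 73, and -1.17 for brat (adjusted p = 2.3e-06). There mei-P26 was not listed. In late elav-fne embryos the authors' deposited table gives -1.78 for mei-P26 (adjusted p = 2.8e-37) and -1.30 for brat (adjusted p = 1.9e-07), and pum was not listed. The late elav list holds 0.578% of the 12625 late genes, and the late elav-fne list holds 1.36%. The pum fold at the identical segment was -3.73 in late elav and -4.02 in early elav embryos, in the authors' deposited tables. For mei-P26 the late elav-fne fold of -1.78 and the early one of -3.49, both from the authors' deposited tables, rest on segments of 14119 and 11011 bases, so they are not the same measurement.

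None of the 4 genes was listed in mutants that keep elav. The early fne list holds 0.459% of genes, the late fne list 0.0634%, the early rbp9 list 0.0475% and the fne-rbp9 list 0.309%. These lists are short, with 58, 8, 6 and 39 genes. A count of 0 of 4 genes is near that background, and it does not show that fne or rbp9 mutants used these segments as wild type did.

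**Figure D2:**
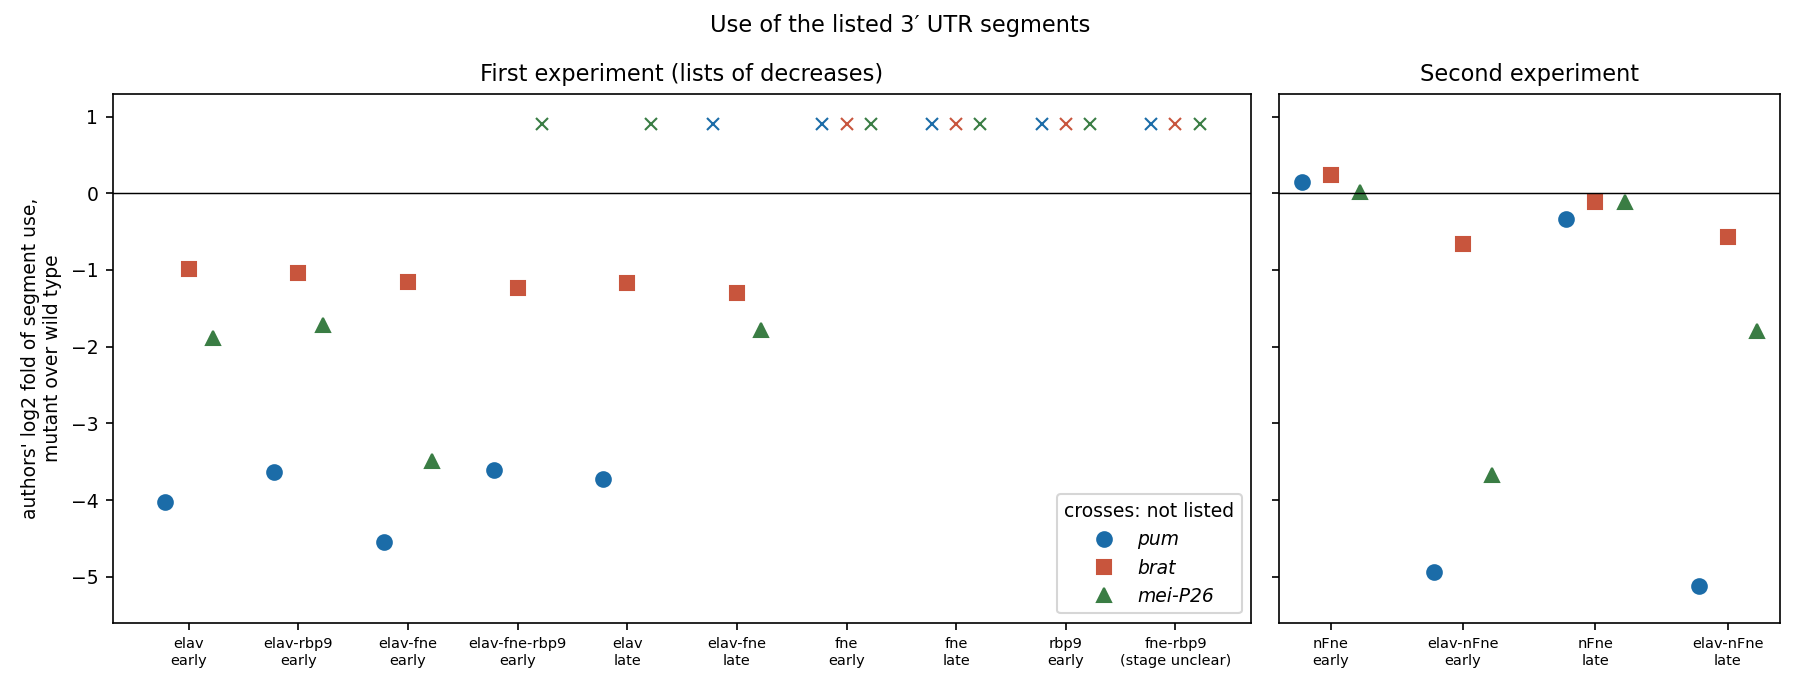
The authors' log2 fold (mutant over wild type) in segment use for pum, brat and mei-P26 in each comparison of both experiments. Crosses at the top mark genes that are not listed and have no value; pum lay at -3.60 or lower wherever listed, and all 3 genes lay near 0 in nFne and below 0 in elav-nFne.

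The 3 genes had the same order in each of the 3 lists of the first experiment that hold them all. In these lists pum was the lowest and brat the highest of the 3, with mei-P26 between. Across its 5 tables of the first experiment pum ranged from -4.54 to -3.60, and brat across 6 tables from -1.30 to -0.99, from the authors' deposited tables. The mei-P26 range, -3.49 to -1.72 in 4 of the authors' deposited tables, was the widest. The brat and mei-P26 ranges each join early and late tables, whose listed segments differ, so they are not ranges of 1 measurement. In ranks from the lowest fold, pum stood 5th of 185 (elav early), 6th of 149 (elav-rbp9), 20th of 235 (elav-fne early), 27th of 284 (elav-fne-rbp9) and 2nd of 73 (elav late). In contrast, brat lay above the median of each of its lists, at rank 149 of the 185 genes of early elav and rank 133 of the 172 genes of late elav-fne.

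**Figure D3:**
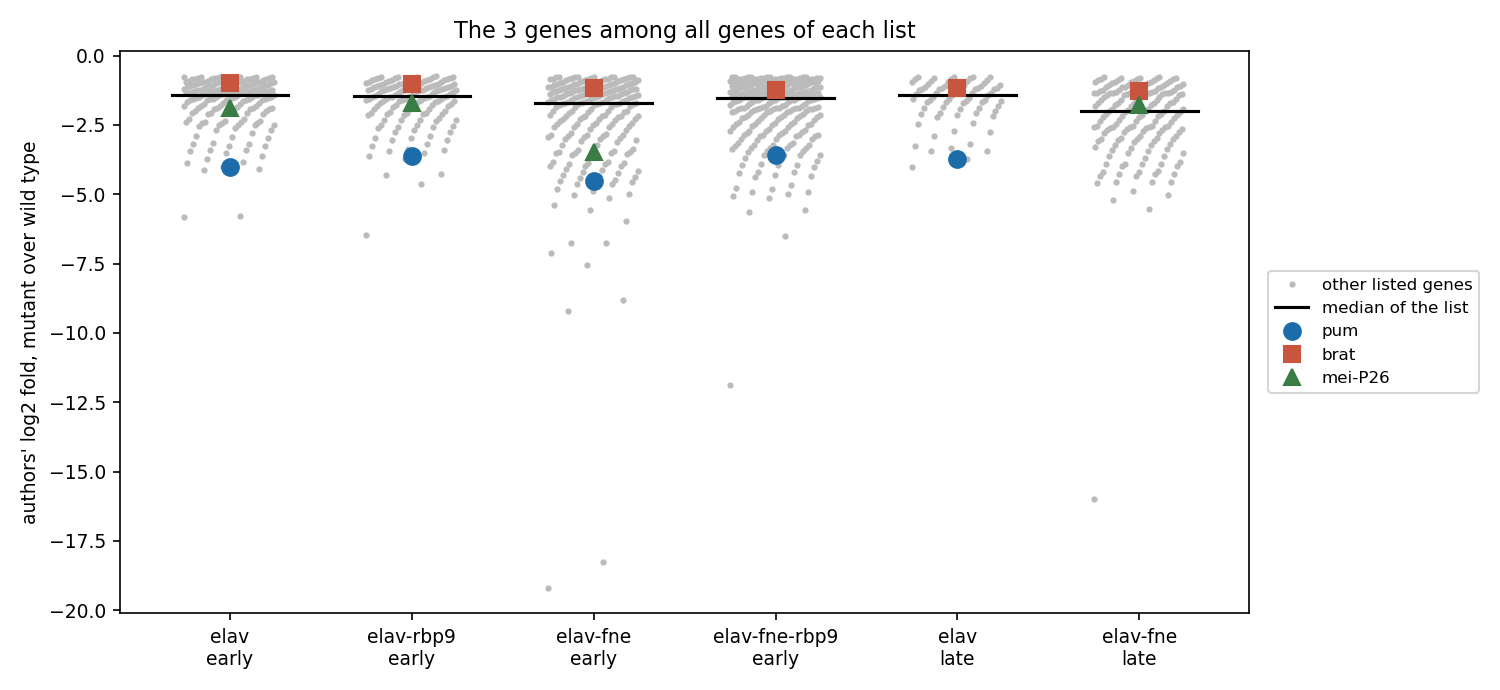
The authors' log2 fold, mutant over wild type, of every listed gene (grey points), with the list median (black line), for the 6 lists that hold the repressor genes. Horizontal scatter has no meaning; pum lies towards the low end of each of its lists, brat lies above each median, and mei-P26 lies below the median in its 3 early lists and above it in elav-fne late.

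The 3 segments also differed in length and in read support. The mei-P26 segment was the widest of its list in each of its 4 lists, where the list medians were 1408 to 1630 bases for the 3 early lists and 1485.5 bases for late elav-fne. In the early elav list the brat segment was the 11th widest of 185, and the pum segment was shorter than the list median of 1630 bases. The authors' mean normalised count, the average count of the segment over the libraries compared, was low for pum. In the authors' deposited tables it was 26.9 for pum in elav early, 7th lowest of 185, and 15.4 in elav late, the lowest of 73, where the list medians were 164.4 and 93.7. For pum the authors' deposited tables also give 17.4 in elav-rbp9, 3rd lowest of 149, and 15.8 in early elav-fne, 2nd lowest of 235. In elav-fne-rbp9 the authors' deposited table gives 26.7 for pum, 7th lowest of 284. The size of the pum folds in these lists thus rests on low counts. The authors' deposited table of elav early gives 194.9 for brat and 90.7 for mei-P26. In the late lists, on other segments, both genes lay below the median count. The authors' deposited table of elav late gives 41.3 for brat, 12th lowest of 73. That of elav-fne late gives 40.6 for brat and 33.2 for mei-P26, 34th and 23rd lowest of 172, with a median of 75.0. Per 1000 bases of segment, the mean normalised counts in the authors' deposited elav early table were 21.8 for pum, 8.24 for mei-P26 and 40.0 for brat. Of the 3 genes, pum thus had the lowest fold and the lowest mean normalised count in each list it shares with them. The error of the fold is not given in any source used here. The depth of each embryo library is unknown here.

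**Figure D4:**
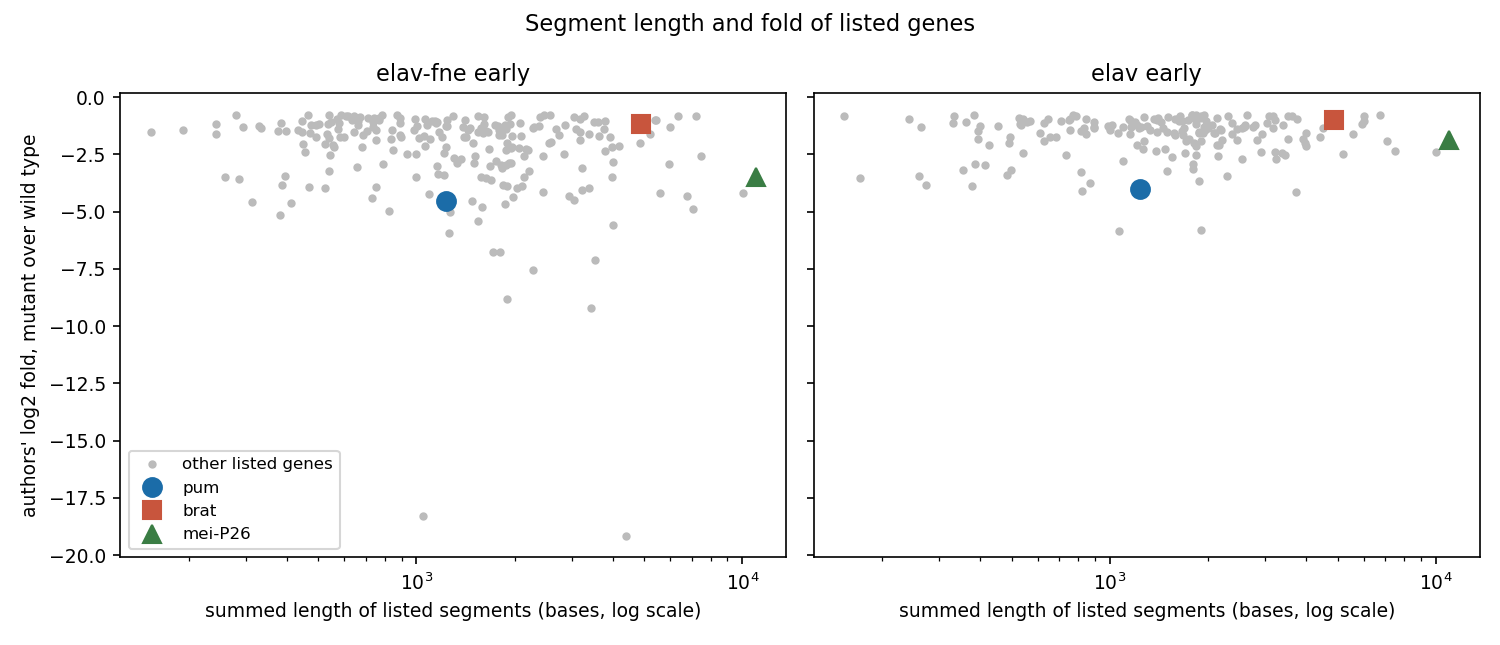
Summed length of a gene's listed segments in bases (log scale) against the authors' log2 fold, mutant over wild type, for each listed gene of early elav-fne and early elav embryos. In both lists mei-P26 has the greatest length, at 11011 bases, and its fold is -3.49 in elav-fne and -1.89 in elav.

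The second experiment asked how the nFne mutation alone and together with loss of elav affected the same segments. Its 174 genes all come from the early elav list of the first experiment, so they were chosen for a decrease in elav embryos and a decrease in elav-nFne is not independent of that choice. The same early segments were used at both stages for pum, brat and mei-P26, and nos is not among the genes. In nFne alone none of the 3 genes passed an adjusted p of 0.05 at either stage. For early nFne embryos, the authors' deposited table gives 0.15 for pum (adjusted p = 0.77), 0.23 for brat (adjusted p = 0.64) and 0.01 for mei-P26 (adjusted p = 0.96). For late nFne embryos, the authors' deposited table gives -0.34 for pum (adjusted p = 0.78), -0.12 for brat (adjusted p = 0.61) and -0.11 for mei-P26 (adjusted p = 0.82). In nFne, 4.05% of 173 genes passed in either direction early and 15.0% late. A p above the threshold does not show that nFne and wild-type embryos used these segments alike.

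In elav-nFne all 3 genes fell at both stages, as did most genes of the table. In early elav-nFne embryos, the authors' deposited table gives -4.94 for pum (adjusted p = 1.4e-15), a 30.7-fold lower use. It is followed in the authors' deposited table by -3.67 for mei-P26 (adjusted p = 1.4e-33), 12.7-fold lower, and -0.66 for brat (adjusted p = 7.9e-07), 1.58-fold lower. In this comparison 82.1% of genes fell past the threshold, so the call itself sets the 3 genes apart from nothing. Their places did differ, since pum was 6th lowest, mei-P26 22nd and brat 164th of 173, around a median of -1.84 in the authors' deposited table. The pum fold and place rest on a mean normalised count of only 13.2 in the authors' deposited table.

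In late elav-nFne embryos pum again lay near the bottom, and mei-P26 was closer to wild type than in early ones. The authors' deposited table gives -5.13 for pum (adjusted p = 2.8e-15), 34.9-fold lower and 2nd lowest of 173. The mean normalised count of this pum segment was only 12.7 in the authors' deposited table, so the size of the fold rests on low counts. The authors' deposited table gives -1.79 for mei-P26 (adjusted p = 7.6e-28) and -0.56 for brat (adjusted p = 1.9e-08). At the identical segment, the late minus early difference of the elav-nFne folds was 1.88 log2 for mei-P26, -0.19 for pum and 0.10 for brat, from the authors' deposited tables. The late and early comparisons share no library, and the differences were not tested. In late elav-nFne embryos 90.7% of 172 genes fell, with a median of -1.43 in the authors' deposited table.

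Early elav-nFne and early elav-fne embryos came from separate experiments with their own wild types. Their folds stood side by side at the identical segments at -4.94 and -4.54 for pum, -3.67 and -3.49 for mei-P26, and -0.66 and -1.16 for brat, from the authors' deposited tables. Their elav-nFne minus elav-fne differences were -0.40, -0.18 and 0.50 log2.

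Genes that act with the 4 repressors are set here beside the share of all genes in any table, which is 3.29% of the 12625 annotated genes and 7.54% of the 5501 with 2 or more 3′ UTR segments in either annotation. Of the TRIM-NHL family, brat and mei-P26 were listed, while wech and tn, its other members in the list used here, were in no table although each had at least 2 segments marked as 3′ UTR. Of 14 cofactors and deadenylase components, 0 were in any table, a count near that background. They include the catalytic subunits twin and Pop2, the scaffold Not1, the RNA helicase me31B, the cap-binding repressor eIF4EHP, the poly(A)-binding protein pAbp, and the germline partners bam and bgcn. Of these 14 genes, 13 had segments in the authors' annotations and 8 had 2 or more 3′ UTR segments. Of those named, eIF4EHP had no segments, and me31B, bam and bgcn did not have 2 or more 3′ UTR segments.

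Other translational regulators were listed beside the repressors in part. Of 18, 6 were in at least 1 table (Imp, Sxl, orb2, bru1, bru3 and rin), where 7.54% of genes with 2 or more 3′ UTR segments were. They are RNA-binding proteins, among which Sxl is the sex-determination switch that also represses translation and orb2 is known for its role in memory. In the 6 tables that hold the repressors, the count of the 18 was 5 in early elav, 5 in elav-rbp9, 5 in early elav-fne, 6 in elav-fne-rbp9, 1 in late elav and 3 in late elav-fne. Over all genes with 2 or more 3′ UTR segments, the shares were 3.67% in early elav, 2.95% in elav-rbp9, 4.66% in early elav-fne, 5.63% in elav-fne-rbp9, 1.45% in late elav and 3.41% in late elav-fne. In early elav embryos, the authors' deposited table gives -3.41 for rin, -2.63 for Imp, -2.07 for Sxl, -1.83 for bru3 and -1.03 for orb2. In early elav-fne embryos, the authors' deposited table gives -5.40 for Imp, -2.35 for bru3 and -1.71 for orb2, and rin was not listed. For Sxl the authors' deposited table of early elav-fne gives -18.27 at a mean normalised count of 15.8. The authors' deposited table gives -1.76 for bru1 in elav-fne-rbp9. All 4 regulators listed in both early elav-fne and early elav had the lower fold in elav-fne, as pum, brat and mei-P26 did. The list median was lower there too, over a partly different set of genes. Of the 4, only Imp and orb2 have identical segments in both lists, as pum, brat and mei-P26 do. The Sxl and bru3 segments differ between the lists, so their folds are not the same measurement. Of the 18 genes, 15 had 2 or more 3′ UTR segments. The 18 were also chosen with earlier results of these data known, so their counts are not independent of that choice.

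In the second experiment 5 of the 18 regulators were measured. All 5 fell in early and in late elav-nFne embryos, where 82.1% and 90.7% of genes did. In early nFne embryos, the authors' deposited table gives an increase of 0.75 for Sxl (adjusted p = 0.034), and the other 4 did not pass.

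Messages known as targets of the repressors were listed for 3 of 10 genes, 8 of which had 2 or more 3′ UTR segments. In any table were 3.29% of all annotated genes and 7.54% of genes with 2 or more such segments. The 10 genes were also chosen with earlier results of these data known. Of the 3 listed, zld encodes the activator of the zygotic genome, and chinmo encodes a temporal identity factor of neurons. Mad encodes a transducer of BMP signals. The authors' deposited tables give -4.50 for zld in early elav-fne, -3.96 in elav-fne-rbp9, -3.20 in late elav-fne, -1.12 in early elav and -1.20 in elav-rbp9. For chinmo, the authors' deposited tables give -2.63 in late elav-fne, -1.38 in late elav and -1.24 in early elav. For Mad the authors' deposited table gives -1.41 in elav-fne-rbp9, its only entry. The classical targets hb and CycB, with bcd, para, eag, GluRIIA and Myc, were in no table. Of these 7, hb, para, eag, GluRIIA and Myc had 2 or more 3′ UTR segments, and CycB and bcd did not.

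Genes with a pattern like that of each repressor were sought by the tables that list them and the size of the fold. No other gene was listed in exactly the 5 tables of pum. For mei-P26 there was 1 other gene, luna, a zinc-finger transcription factor gene, with a mean absolute difference of 0.71 log2 over the 4 tables. Its folds in the authors' deposited tables were -2.19 in early elav-fne and -1.55 in early elav. For brat, 34 genes shared its 6 tables. The nearest were Bacc at 0.20, 14-3-3epsilon at 0.21 and eEF1alpha1 at 0.24 log2 in mean absolute difference. Over the 4 tables of the second experiment the nearest of 172 genes to pum were ct (0.45), Srrm234 (0.47) and Cka (0.47), again in mean absolute difference of log2 fold. The nearest to mei-P26 were Nrg (0.25), inaE (0.25) and Shal (0.26), and the nearest to brat were DIP1 (0.12), Pp2B-14D (0.14) and Atat (0.17). For DIP1 the nearness to brat did not extend to the first experiment. There the authors' deposited tables give DIP1 -3.20 in early elav and -3.36 in elav-rbp9, against -0.99 and -1.04 for brat. These tables share wild-type libraries within a stage, and the differences are a description of fold sizes.

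Adult heads expressed 3 of the 4 genes. In TPM, a transcript abundance scaled for length and library size, pum had 19.3 and 19.7, mei-P26 13.5 and 13.3, and brat 7.68 and 7.55 in the 2 wild-type libraries. The means were 19.5 ± 0.282 TPM for pum, 13.4 ± 0.133 TPM for mei-P26 and 7.62 ± 0.0915 TPM for brat (SD, n = 2 each). The gaps between neighbouring genes exceeded the spread between the 2 libraries. All 3 lay above 4.02 TPM, the median of the 14852 genes above 0, at ranks 3183, 4386 and 6005 of 17753. The gene nos was listed at 0 in the first library and at 0.00559 TPM in the second. The germline partners bam and bgcn were also near 0, at up to 0.00693 and 0.0695 TPM, while the other 12 cofactors lay between 6.36 and 250.3 TPM. No mutant heads were measured, and the depth behind these values is unknown.

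**Figure D5:**
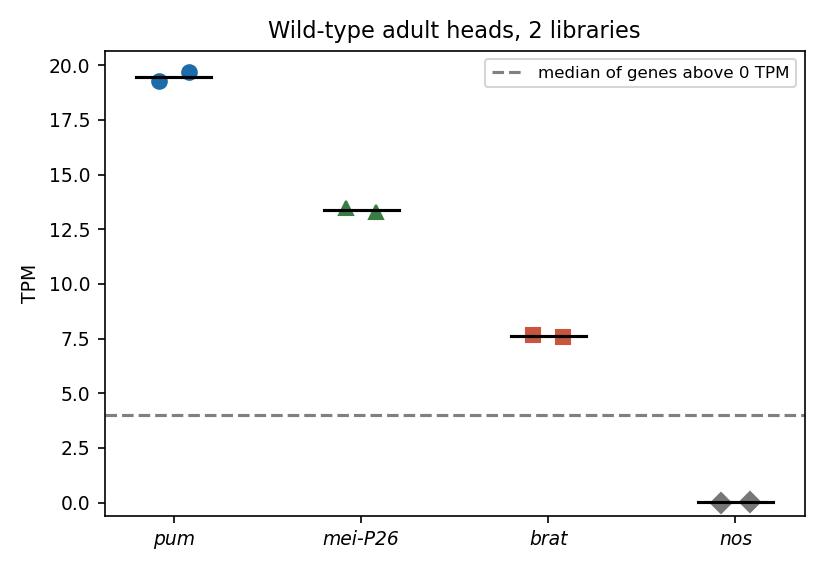
Expression in TPM of the 4 genes in the 2 wild-type adult head libraries (points), with their mean (black line) and the median of all genes above 0 (dashed line). The points of pum, mei-P26 and brat lie above the dashed line and do not overlap each other, and nos lies at or near 0.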

How the data were processed

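Poly(A) RNA of 58 embryo libraries and 2 adult head libraries was sequenced from stranded libraries, per the labels' protocols. A further 2 iCLIP libraries were not analysed here. The members and the gene lists were chosen with earlier results of these data known. For embryos the authors deposited comparisons, not values per library: for each gene a log2 fold, mutant over wild type, in segment use, its p-value and the adjusted value, per the file headers. A fitted use score per condition and a mean normalised count, also deposited per the file headers, stand beside them, and the scores, on a scale set within each table, were not used. The 4 tables of the second experiment give, per the file headers, a weighted log2 fold for each gene and the lowest adjusted p-value among its segments. Segment annotations were written with rtracklayer 1.40.5, per the file headers, and the build is dm6 per the submitters' processing notes. Which aligner and which test were used is not given in the sources used here. Head expression was deposited in TPM by the authors. The listed genes sum to 360087.3 and 365409.9 TPM, short of a full library.

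Groups were taken from the labels. Members were found by gene identifier (nos is nanos in the reference). Segment coordinates were set against Ensembl release 115 (BDGP6.54), overlap with exons and 3′ UTRs was computed, and ranks, medians and the share of genes called were counted. A call is presence in a list of the first experiment, or an adjusted p under 0.05 in the second. Named genes are the 4 members, the genes of the fixed lists by counts, with values for listed ones, and the 3 genes nearest to each member in log2 fold. No test was made and no sequence was used. The functions for interval overlap and for nearness in fold were checked on simulated input with known answers. Alternatives were a stricter fold or p, another background and leaving out each head library. Calculations used Python 3.11.15, numpy 2.4.6 and pandas 2.3.3, and plots matplotlib 3.10.9.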

Additional observations from a re-analysis of the deposited data

How the results depend on the processing

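With a log2 fold of -1.5 or lower required, 9 of the 15 entries of the 4 genes in the first experiment were left, and 1 of 2 in each of elav-fne-rbp9 early, elav late and elav-fne late. The entries lost were those of brat, which lies between -1.30 and -0.99. With an adjusted p under 1e-06, 14 were left, and 1 of 2 in elav late. Without the fne-rbp9 table, an alternative chosen after seeing the data, the count was 15. In elav-nFne 3 genes passed at both stages under an adjusted p of 0.0001. With an adjusted p under 0.05 and an absolute log2 fold of at least 1, 2 passed at each stage. The share of genes listed was higher over the 5046 early and 5048 late genes whose 3′ UTR holds 2 or more segments, at 3.67% for elav, 2.95% for elav-rbp9, 4.66% for elav-fne and 5.63% for the triple mutant early, and 1.45% for elav and 3.41% for elav-fne late. Fold differences at identical segments were those given in the report. With 2 head libraries, leaving out either gives the value of the other, and nos is then at 0 or 0.00559 TPM. Counts of ELAV-type and Pumilio motifs in the segments, with their alternatives, were not run, because no genome sequence was used here. No paired analysis was possible because no values per library were used. What limits these results is that the lists hold only decreases past a threshold, that tables of 1 stage share wild type, and that the error of each fold is not given.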

Other observations

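The mean normalised count of the same mei-P26 segment differed between the experiments by more than that of pum or brat. Of the authors' deposited tables, nFne early gives 435.3 for mei-P26 and elav early gives 90.7, a ratio of 4.80, the 2nd highest of 133 genes with the same single segment in both, whose median ratio was 0.918. The ratio was 1.67 for brat and 1.13 for pum. Between elav-nFne early and elav-fne early, in the authors' deposited tables, the ratio was 3.76 for mei-P26 (185.7 and 49.4), 7th highest of 101 genes, against 2.19 for brat and 0.835 for pum, with a median of 1.14. The mei-P26 folds of these 2 comparisons in the authors' deposited tables were -3.67 (elav-nFne) and -3.49 (elav-fne). Each count is an average over mutant and wild-type libraries, and nFne early and elav early also differ in the mutant. Their mei-P26 folds in the authors' deposited tables were 0.01 and -1.89. The tables were normalised separately, and the cause of the different counts was not tested.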
